A study of Mus musculus with 4 samples.

Results

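Genes of the adult muscle fibre were examined in muscle satellite cells, the stem cells that regenerate skeletal muscle, sorted from mice with and without the calcitonin receptor gene Calcr in these cells. The set held 35 genes of the sarcomere, of calcium handling and of the energy supply of fibres, chosen by name, and every probe set with 1 of these symbols in the platform annotation was taken. All 35 genes were found, with 65 of the 45037 probe sets that were not array controls, out of 18193 named genes. They were divided into 15 fast, 8 slow and 12 shared genes by the fibre type in which textbooks place them.

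The Calcr conditional knockout (cKO) mice were Pax7Cre/+, Calcr flox/flox and Rosa-YFP/YFP, and the control mice were Pax7Cre/+, Calcr +/+ and Rosa-YFP/YFP. Both groups therefore carried the tamoxifen-dependent Cre (CreERT2) at the Pax7 locus and the YFP reporter, and both received tamoxifen. At 10 weeks of age and 2 weeks after tamoxifen, cells positive for YFP were taken by sorting, without culture. Each group had 2 biological replicates on 1 array each, called here cKO 1, cKO 2, control 1 and control 2 after the numbers in their titles. The sources used here give neither the number of mice behind a sample nor what the replicate number stands for. The p-values measure the spread between these samples only, and 4 arrays limit the precision.

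Median signals were 68.8 on cKO 1 and 57.8 on cKO 2, against 70.4 on control 1 and 64.3 on control 2. The Calcr probe set read 568 and 684 in cKO, against 1268 and 1424 in control, lower on both cKO arrays as the labels say. Whether it lies in the deleted part is unknown here. All 10 satellite cell markers passed the signal filter, with Pax7 at 2169.8 and 2434 in cKO and 2319 and 3647 in control. Endothelial markers split the arrays by number instead: the summed signal of 12 markers was 8734 and 1303 on cKO 1 and cKO 2, against 9478 and 1056 on control 1 and control 2. With 2 samples a group, an exact permutation test (2-sided) cannot give a p below 0.333.

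The sarcomere is the contractile unit of a muscle fibre: thick filaments of myosin pull on thin filaments of actin, and calcium released from the sarcoplasmic reticulum opens the thin filament by way of troponin and tropomyosin. Most of its proteins exist in fast and slow forms that differ between fibre types, while actin, titin and nebulin serve both. Quiescent satellite cells lie on the fibre surface, outside the fibre membrane but under the basal lamina, and are known for transcribing little of this program before they differentiate. Their isolation requires the fibres to be broken up.

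No muscle fibre gene passed the test between cKO and control cells. Most fast genes were bright on control 1 and cKO 2 and dim on cKO 1 and control 2, so the genotype difference had opposite signs in the arrays numbered 1 and in those numbered 2. Over all 35 genes, each by its brightest probe set, the median difference between cKO and control was 0.02 on the log2(signal + 1) scale, with 19 higher and 16 lower in cKO. The median over all named genes was -0.07. Of the 46 member probe sets that passed the signal filter, 0 had an adjusted limma p under 0.05, nor did any of the 22519 tested (0%). At an unadjusted limma p under 0.05 there was 1 member probe set, of Actn3, against 163 of all tested (0.724%). In 2 genes both cKO arrays lay above both control arrays, and in 4 genes both lay below. These are 5.71% and 11.4% of the members, and over all named genes the shares were 9.44% and 15.8%. In a bulk sample, fewer cells of a type and less RNA per cell cannot be told apart.

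Within replicate numbers, 22 of 35 members were lower in cKO between the arrays numbered 1 and higher in cKO between those numbered 2. That is 62.9% of the members, beside 16.6% of all named genes. The opposite combination held for 3 members, 6 were lower in cKO in both numbers and 4 were higher in both. The members' median difference was -0.55 in number 1 and 0.52 in number 2, beside 0.07 and -0.22 for all named genes. Relative to those, it was -0.63 in number 1 and 0.74 in number 2. At least 2-fold lower in cKO in number 1 were 11 members, beside 5.94% of all named genes, and at least 2-fold higher in number 2 were 7, beside 5.18%. With arrays centred on their median 23 members showed this combination, beside 19.7% of all named genes, and after quantile normalization 24 did, beside 24.4%. Genes of 1 program vary together, so the members are not replicates of a genotype, and these counts carry no test.

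**Figure D1:**
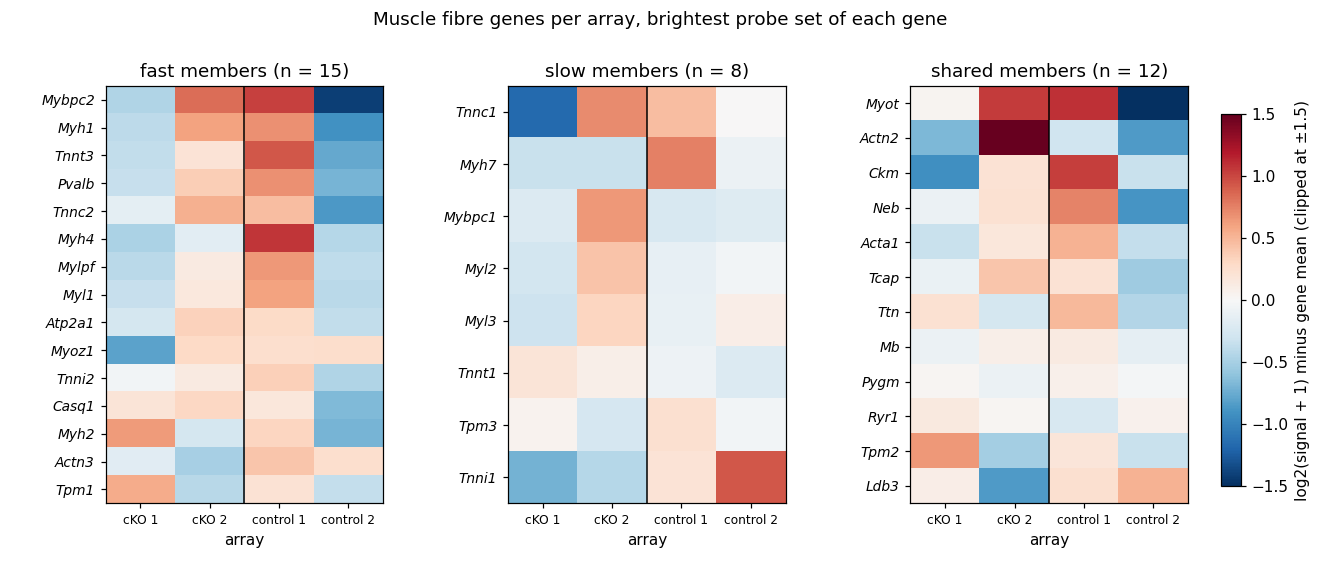
Each row is a gene by its brightest probe set and each column an array, cKO left and control right of the line; colour is log2(signal + 1) minus the gene's mean over the 4 arrays, clipped at 1.5 either way. Rows run from the most positive to the most negative difference of number 2 minus number 1; 11 of 15 fast genes, 3 of 8 slow genes and 8 of 12 shared genes were lower in cKO 1 than in control 1 and higher in cKO 2 than in control 2.

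Of the 15 fast fibre genes, 11 had this split (73.3%), also after median centring and after quantile normalization. Their median signal was 144 on cKO 1 and 209 on cKO 2, against 349 on control 1 and 106 on control 2. Of the 15, 9 were brightest on control 1 and 10 were dimmest on control 2. The median difference between cKO and control was 0.08 over all arrays, -0.94 in number 1 (1.92-fold lower in cKO) and 0.58 in number 2. The pooled median followed single arrays: it was 0.49 without control 1, -0.58 without control 2, 0.12 without cKO 1 and -0.28 without cKO 2. Of the 15 genes, 12 passed the signal filter and 0 passed the test.

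Among the myosin genes of fast fibres, Myh1, the IIx heavy chain gene, read 339 and 679 in cKO and 717 and 238 in control. Myh4, the heavy chain gene of the fastest mouse fibres, read 97.8 and 122 in cKO, against 288 and 101 in control. For both genes the brightest array was control 1 and the groups overlapped. Myh2, the IIa heavy chain gene, lay below the signal filter, at 91.9 and 48.7 in cKO and 73.4 and 35.9 in control, higher on the arrays numbered 1 in both groups. The 3 genes belong to a cluster of close paralogs, and their probe sets may share signal. The fast light chain genes behaved like Myh1. Mylpf, the phosphorylatable light chain gene, read 340.4 and 494 in cKO and 705 and 344 in control, and Myl1, the essential light chain gene, read 249 and 352 in cKO and 480 and 238 in control. Mybpc2, which encodes the fast myosin-binding protein C, was below the filter and had the widest spread of the fast genes on the log2 scale, at 36.4 and 90.8 in cKO and 103 and 18.3 in control. In number 1 these differences were -1.08 for Myh1, -1.55 for Myh4, -1.05 for Mylpf, -0.94 for Myl1 and -1.48 for Mybpc2. In number 2 they were 1.51, 0.27, 0.52, 0.56 and 2.25 in the same order of genes.

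The fast troponin genes, whose products bind calcium and release the thin filament, had the same split. Tnnc2, the calcium-binding subunit gene, read 357 and 573 in cKO and 543 and 217 in control. Tnnt3, the tropomyosin-binding subunit gene, read 141 and 209 in cKO and 349 and 106 in control. Tnni2, the inhibitory subunit gene, read 102 and 115 in cKO and 135 and 76.6 in control, a narrower range. In all 3 troponin genes control 2 was the dimmest array, and the cKO values lay inside the control range for Tnnt3 and Tnni2. Tpm1, which encodes alpha-tropomyosin and is also transcribed in smooth muscle and many non-muscle cells, differed from them. It read 1869.6 and 955 in cKO and 1486 and 992 in control, brightest on the arrays numbered 1 in both groups.

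Among fast genes of calcium handling, Atp2a1, the calcium pump gene of the sarcoplasmic reticulum in fast fibres, read 411 and 628 in cKO and 603 and 381 in control. Pvalb, the calcium buffer parvalbumin, read 97.3 and 161 in cKO and 199.9 and 76.4 in control. Both were lower in cKO in number 1 and higher in number 2, as Myh1 and Myh4 were. Casq1, the calcium store protein calsequestrin, read 144 and 155 in cKO and 141 and 78.8 in control. Both cKO arrays lay above both control arrays, by a log2 difference of 0.50 with an SE of 0.42 (limma, Benjamini-Hochberg adjusted p = 0.99999), with 0.03 in number 1 and 0.97 in number 2. It was 0.08 without control 2 and 0.91 without control 1.

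Actn3, the alpha-actinin gene of the Z-disc in fast fibres, had the same sign in both numbers. It read 580.4 and 463 in cKO, against 878 and 782 in control, so neither cKO array reached the control range. On the log2 scale cKO was -0.68 from control (SE 0.28), a 1.60-fold lower signal. It was -0.60 in number 1 and -0.75 in number 2, and it did not pass the threshold (limma, Benjamini-Hochberg adjusted p = 0.99999). Leaving out 1 array at a time, the difference ran from -0.84 to -0.51. Its Z-disc partner Myoz1, a calsarcin gene of fast fibres, was below the filter, at 20.5 and 45.1 in cKO and 43.6 and 44.0 in control.

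To show what lies before the start of genes that shared the split, the 250 bases upstream of 4 of them and of Tpm1, which did not share it, are given from RefSeq (GRCm38.p6), 5′ to 3′ on the gene's strand. They were picked after the values were seen. Capitals mark E-boxes (CANNTG), the kind of site that myogenic basic helix-loop-helix factors bind, and the TATA motif (TATAAA on either strand). Acta1 encodes skeletal actin and its window is chr8:123894776-123895025 (minus strand), and that of Mylpf is chr7:127211358-127211607 (plus strand). Those of Tnnc2, Myh4 and Tpm1 are chr2:164779735-164779984 (minus strand), chr11:67237562-67237811 (plus strand) and chr9:67049214-67049463 (minus strand).
Acta1: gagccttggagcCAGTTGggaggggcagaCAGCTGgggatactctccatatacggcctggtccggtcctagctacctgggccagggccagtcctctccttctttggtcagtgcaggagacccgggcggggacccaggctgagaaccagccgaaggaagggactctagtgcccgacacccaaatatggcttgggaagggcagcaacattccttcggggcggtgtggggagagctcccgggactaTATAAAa
Mylpf: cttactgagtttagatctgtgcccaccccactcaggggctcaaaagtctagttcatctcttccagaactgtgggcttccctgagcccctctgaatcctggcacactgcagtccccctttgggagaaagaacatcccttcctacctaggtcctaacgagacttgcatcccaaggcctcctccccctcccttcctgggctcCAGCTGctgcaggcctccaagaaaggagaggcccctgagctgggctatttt
Tnnc2: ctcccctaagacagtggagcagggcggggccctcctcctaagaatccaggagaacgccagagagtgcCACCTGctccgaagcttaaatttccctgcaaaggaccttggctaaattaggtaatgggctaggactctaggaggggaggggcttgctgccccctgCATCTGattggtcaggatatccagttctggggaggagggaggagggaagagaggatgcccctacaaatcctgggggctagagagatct
Myh4: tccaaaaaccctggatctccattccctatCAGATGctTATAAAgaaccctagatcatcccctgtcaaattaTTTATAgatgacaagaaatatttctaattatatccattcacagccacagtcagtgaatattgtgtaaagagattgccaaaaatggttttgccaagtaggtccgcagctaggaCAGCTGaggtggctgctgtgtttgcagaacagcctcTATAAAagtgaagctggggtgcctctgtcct
Tpm1: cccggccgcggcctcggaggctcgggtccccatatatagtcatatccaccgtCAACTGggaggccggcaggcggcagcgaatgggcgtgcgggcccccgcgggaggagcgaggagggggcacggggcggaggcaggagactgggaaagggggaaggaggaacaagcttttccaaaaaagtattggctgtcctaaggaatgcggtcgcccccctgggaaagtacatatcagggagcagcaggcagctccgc

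E-boxes were counted as 2 in Acta1, 1 in Mylpf, 2 in Tnnc2, 2 in Myh4 and 1 in Tpm1. Over the set, 28 of the 35 genes had a RefSeq window, 36 windows in all. An E-box was present in 9 of 12 fast, 12 of 12 slow and 9 of 12 shared windows, beside 66.2% of all 32851 windows. The E-box form CAGCTG, which is a subset of CANNTG, was in 16 of 36 member windows (44.4%), beside 13.0% of all windows. The M-CAT motif (CATTCC on either strand) was in 5 of 12 fast, 3 of 12 slow and 1 of 12 shared windows, beside 12.6%. The MEF2 consensus was in 3 of 12 fast, 0 of 12 slow and 1 of 12 shared windows, beside 2.92%, and the CArG box was in 1, 1 and 3 of 12, beside 1.47%. Some genes have several windows, and a match is a description of letters, not of a bound site.

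Slow fibre genes did not share 1 pattern. Their median signal was 108 on cKO 1 and 222 on cKO 2, against 166 on control 1 and 149.96 on control 2. The median difference between cKO and control was -0.10 over all arrays, -0.20 in number 1 and 0.26 in number 2. In number 1, 6 of 8 were lower in cKO, and in number 2, 5 of 8 were higher. The split of the fast genes held for 3 of 8 slow genes; the difference between the classes was not tested. Of the 8 genes, 6 passed the signal filter and 0 passed the test. The pooled median was 0.28 without cKO 1, -0.25 without cKO 2, -0.08 without control 1 and -0.12 without control 2.

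Among slow genes of the thick filament, Myh7, the slow heavy chain gene, read 57.0 and 56.7 in cKO, against 122 and 67.9 in control. Both cKO arrays were below both control arrays and below the filter signal of 63.9, with a log2 difference of -0.67 and an SE of 0.45 (limma, Benjamini-Hochberg adjusted p = 0.99999). It was -1.08 in number 1 and -0.25 in number 2, and the pooled value was -0.25 without control 1 and -1.09 without control 2. Myl2, the slow and ventricular regulatory light chain gene, read 159 and 258 in cKO and 176 and 187 in control. Myl3, its essential light chain partner, was below the filter, at 37.0 and 57.9 in cKO and 42.7 and 49.6 in control. Its next probe set, also below the filter, read 48.1 and 53.9 in cKO and 44.7 and 21.0 in control, without overlap. The dimmest Myl3 probe set had the split of the fast genes, as the brightest had. Mybpc1, which encodes the slow myosin-binding protein C, read 361 and 657 in cKO and 352 and 364 in control. There cKO 2 was the brightest array and the groups overlapped. Another probe set read 268 and 417 in cKO and 225 and 265 in control, without overlap, and the third read 111 and 195 in cKO and 103 and 114 in control, with overlap. On all 3, cKO 2 was brightest and control 1 dimmest.

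Of the slow thin filament genes, Tnnc1, the slow and cardiac calcium-binding troponin gene, read 49.6 and 185 in cKO and 156 and 113 in control. On the log2 scale it had the widest range of the slow genes that passed the filter, with cKO 1 lowest and cKO 2 highest. Tnnt1, the slow tropomyosin-binding subunit gene, read 295 and 274 in cKO, against 244 and 222 in control. Both cKO arrays lay above both control arrays by a small step, with a log2 difference of 0.29 and an SE of 0.32 (limma, Benjamini-Hochberg adjusted p = 0.99999), at 0.27 in number 1 and 0.30 in number 2. Tnni1, the slow inhibitory subunit gene, was dim on every array, at 10.7 and 13.3 in cKO and 21.2 and 35.7 in control, and was not tested. Tpm3, a tropomyosin gene that non-muscle cells also transcribe, read 2512 and 2031 in cKO and 2875 and 2354 in control on its brightest probe set, where the groups overlapped. On its other 4 probe sets, all above the filter, both cKO arrays lay under both control arrays, as in 1818 and 1345 in cKO against 1984 and 2070 in control, and 0 of the 5 passed the test (limma, Benjamini-Hochberg adjusted p = 0.99999).

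Genes common to both fibre types stood between the fast and the slow ones in how many had the split, 8 of 12. Their median signal was 129 on cKO 1 and 153 on cKO 2, against 189 on control 1 and 144 on control 2. The median difference between cKO and control was 0.07, with -0.29 in number 1 and 0.37 in number 2. It was 0.34 without control 1, -0.32 without control 2, 0.08 without cKO 1 and -0.01 without cKO 2. Of the 12 genes, 10 passed the signal filter and 0 passed the test.

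Acta1, the skeletal actin gene, read 486 and 689 in cKO and 881 and 478 in control, in the order of the fast genes. Neb, which encodes the thin filament template nebulin, read 121 and 151 in cKO and 216 and 69.3 in control. Ttn, which encodes titin, the spring between Z-disc and thick filament, read 369 and 262 in cKO and 443 and 232 in control. Control 1 was the brightest array for all 3 and control 2 the dimmest. Ckm, the muscle creatine kinase gene, had the lowest difference in number 1 among the members by their brightest probe sets, at 37.0 and 82.3 in cKO and 146 and 55.8 in control, a log2 difference of -1.95 in number 1 and 0.55 in number 2. Its other probe set was below the filter and had the opposite signs (0.39 and -0.17).

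At the Z-disc, Tcap, the titin-cap gene, read 67.9 and 97.7 in cKO and 84.8 and 50.3 in control. Actn2 and Myot, the genes of another alpha-actinin and of myotilin, were below the filter. Actn2 read 19.9 and 116 in cKO and 26.0 and 17.4 in control, high on cKO 2 alone, and Myot read 16.7 and 34.7 in cKO and 35.8 and 2.78 in control. Ldb3, whose product links alpha-actinin to the Z-disc, read 115 and 59.2 in cKO, against 128 and 155 in control. Both cKO arrays were below both control arrays, by a log2 difference of -0.76 with an SE of 0.45 (limma, Benjamini-Hochberg adjusted p = 0.99999). That lay mostly in number 2 (-1.37, against -0.15 in number 1), and another of its probe sets, also above the filter, read 105 and 105 in cKO and 120.5 and 95.0 in control. Leaving out cKO 2 gave -0.28 for the brightest one, and leaving out cKO 1 gave -1.23.

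The remaining shared genes had no common order over the arrays. Ryr1, the calcium release channel gene, read 309 and 286 in cKO and 237 and 293 in control. Pygm, the muscle glycogen phosphorylase gene, read 271 and 250.1 in cKO and 279 and 259.8 in control, the narrowest range of the set on the log2 scale. Mb, which encodes the oxygen store myoglobin, read 137 and 155 in cKO and 161 and 133 in control. It had the split of the fast genes by a small step (-0.23 in number 1 and 0.21 in number 2). Its other probe set, below the filter, read 37.0 and 26.1 in cKO and 49.4 and 72.1 in control, without overlap. Tpm2, the beta-tropomyosin gene, which smooth muscle also uses, read 2271 and 1017 in cKO and 1641 and 1146 in control, bright on the arrays numbered 1 as Tpm1 was. The dimmest of its probe sets, also above the filter, read 384 and 425 in cKO and 372 and 330 in control. On that one cKO 2 was brightest and the groups did not overlap, while the others were higher on the arrays numbered 1.

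**Figure D2:**
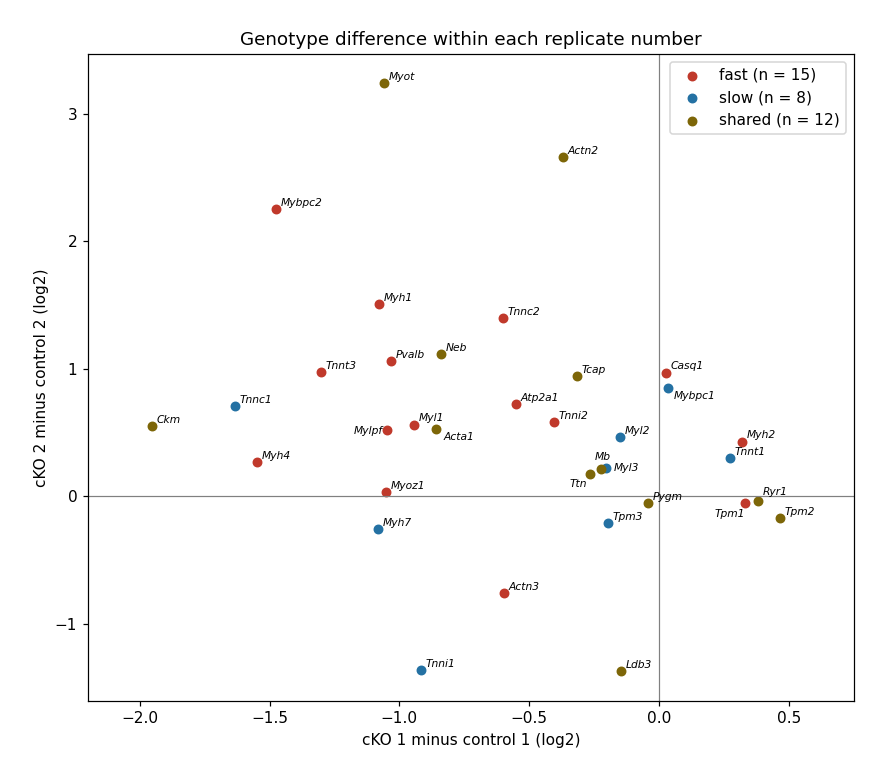
Each point is a gene by its brightest probe set; the x axis is the log2 difference cKO 1 minus control 1 and the y axis cKO 2 minus control 2, with lines at 0. The upper left area, lower in cKO in number 1 and higher in number 2, holds 22 of the 35 genes, among them 11 of the 15 fast genes.

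Different probe sets of a gene gave a check on these values. Of the 14 members with several probe sets, 5 had the same signs in number 1 and number 2 on every one of them. All 6 probe sets of Ttn were lower in cKO in number 1 and higher in number 2, although 1 of them differed by only 0.0028 in number 2. The 5 probe sets of Tpm3 were all lower in cKO in both numbers, and the 3 of Mybpc1 all higher in both. Of the other members, both brighter probe sets of Myh1 had the split (-1.08 and 1.51, and -0.51 and 1.31), while the third, below the filter, was near 0 (0.05 and -0.03). The 3 probe sets of Tpm1 above the filter had no common sign in number 2 (-0.05, -0.75 and 0.38). In all, 15 of 24 fast, 4 of 16 slow and 14 of 25 shared probe sets were lower in cKO in number 1 and higher in number 2.

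**Figure D3:**
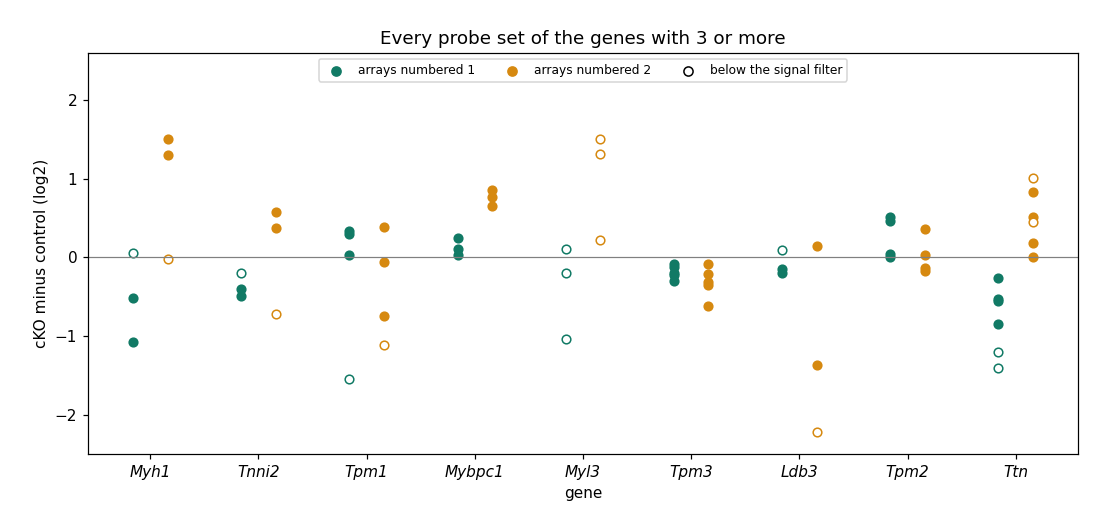
Every probe set of the 9 members with 3 or more of them, with the log2 difference cKO minus control on the y axis, green for the arrays numbered 1 and orange for those numbered 2; open points lie below the signal filter. For Ttn all green points lie below 0 and no orange point does, whereas for Tpm3 all points lie below 0.

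The markers of other cell types did not all order the arrays as the fast genes did. The median satellite cell marker read 2261 on cKO 1 and 2827 on cKO 2, against 2541 on control 1 and 3325 on control 2. On control 2, the dimmest array for most fast genes, 9 of 10 markers were brightest, among them Calcr, the targeted gene. Of all 18193 named genes, 6641 were brightest on control 2. The summed signal of the satellite cell markers was 24834 and 27431 in cKO and 25555 and 32416 in control. Endothelial markers had a median of 692 and 83.3 in cKO and 783 and 68.2 in control, with Cdh5 (VE-cadherin) at 1059.6 and 110.4 in cKO and 1044 and 79.7 in control. Of these 12 markers, 6 had the sign combination of the fast genes, though the step between numbers was far larger than that between genotypes. Pericyte and smooth muscle markers summed to 19006 and 8697 in cKO and 16778 and 10936 in control. Their median was 1297 and 365 in cKO and 1029 and 202 in control. By their brightest probe sets, Tpm1 and Tpm2 were also high on the arrays numbered 1. Leukocyte markers summed to 1470.2 and 548 in cKO and 1154 and 2285 in control, with Ptprc at 28.3 and 2.23 in cKO and 21.6 and 39.5 in control. Fibro-adipogenic markers (7 of 8 measured) summed to 13009.5 and 14388 in cKO and 12467 and 15083 in control. Their median was 199 and 406 in cKO and 298 and 244 in control, in which cKO was lower in number 1 and higher in number 2. That combination held for 2 of the 7 markers (28.6%), beside 16.6% of all named genes. Smaller lists, of 4 erythroid, 3 Schwann, 4 tenocyte and 2 adipocyte markers, included Hbb-b2 (655 and 51.4 in cKO, 551 and 80.7 in control) and Mbp (1194 and 55.4 in cKO, 1249 and 96.2 in control), both brighter on the arrays numbered 1. Of the other erythroid and Schwann markers, Sox10 was brighter on those arrays in both groups, and Hba-a1, Alas2, Slc4a1 and Pmp22 were not. Sox10, Hba-a1, Alas2 and Slc4a1 lay below the signal filter, as did 7 of the 12 leukocyte markers, among them Ptprc. None of the cell type lists had a marker at an exact signal of 0. What part any of these cells has in the fibre signals was not tested.

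**Figure D4:**
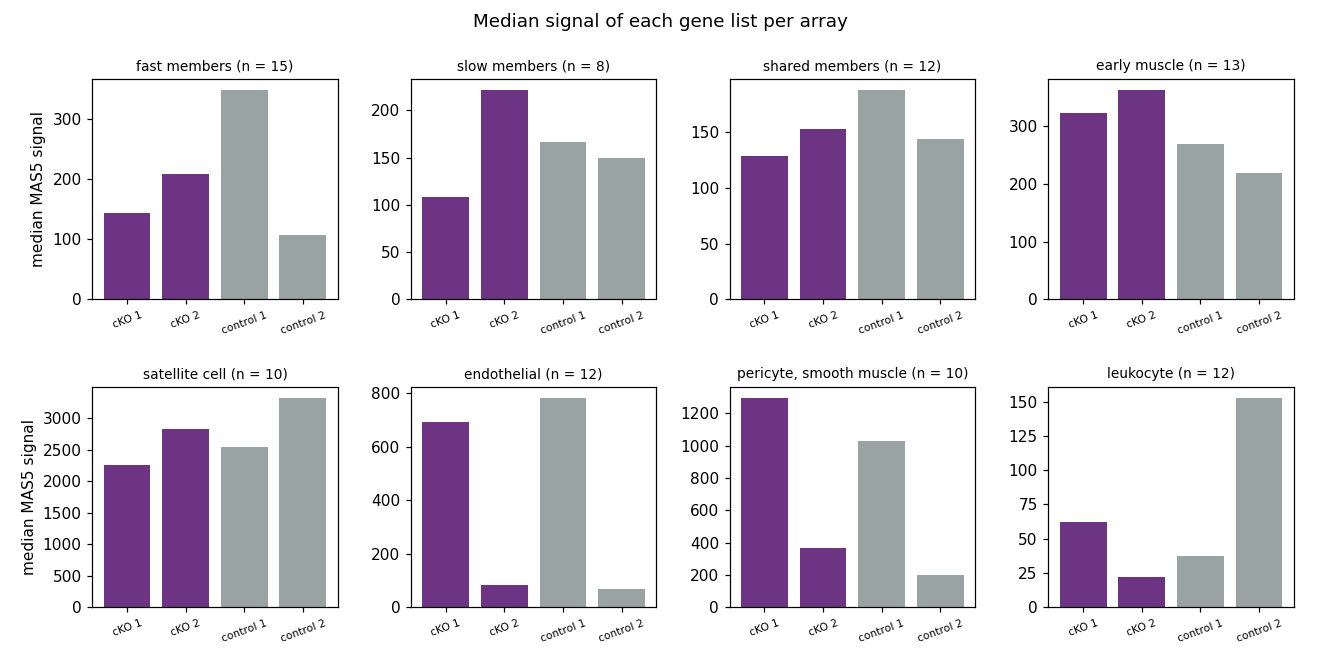
Bars are the median MAS5 signal of each list on 1 array, cKO in purple left of control in grey; each panel has its own y axis from 0. Fast members are highest on control 1 (349) and then cKO 2 (209), endothelial markers on control 1 and cKO 1, satellite cell markers on control 2 (3325).

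Other fibre genes, outside the 35, were taken from a list of 50. Of 48 measured, 27 passed the filter, 0 passed the test in either direction, and 16 were lower in cKO in number 1 and higher in number 2, which is 33.3% beside 16.6% of all named genes. Their median difference was -0.09 in number 1 and 0.03 in number 2. Klhl41, a sarcomere assembly gene, read 570.5 and 714 in cKO and 815 and 549 in control. Fabp3, the muscle fatty acid-binding protein gene, read 119.5 and 284 in cKO and 286 and 153 in control, and Eno3, the muscle enolase gene, 119.9 and 173 in cKO and 200.1 and 151 in control. These genes followed the fast genes. The combination held for 8 of 20 structural (40%), 6 of 15 energy (40%) and 2 of 13 calcium genes (15.4%), beside 16.6% of all named genes. The median difference of the calcium genes was 0.01 in number 1 and -0.33 in number 2, unlike that of the fast genes. Jsrp1, a calcium release complex gene, did not follow the fast genes, at 217 and 224 in cKO and 201 and 414 in control.

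Genes of embryonic muscle and early differentiation had the split in 3 of 13 cases (23.1%), beside 16.6% of all named genes. Their median difference between cKO and control was 0.06 in number 1 and 0.27 in number 2. Myh3, the embryonic heavy chain gene, read 290.0 and 364 in cKO, against 269 and 203 in control. Chrna1, a subunit gene of the muscle acetylcholine receptor, read 649 and 717 in cKO and 476 and 525 in control, and Myod1, a myogenic factor gene, read 1110.2 and 840.2 in cKO and 1371 and 1191 in control. Without overlap between the groups, 2 of the 13 were higher in cKO (Myh3 and Chrna1) and 2 lower (Myod1 and Myl6b, which was below the filter), 15.4% each, beside 9.44% and 15.8% of all named genes. Myl6b was named after its values were seen. Actc1, the cardiac actin gene that developing muscle uses, read 1679 and 2042 in cKO and 1829 and 1662 in control. Myog, the differentiation factor gene, read 2134 and 2665 in cKO and 2049 and 2475 in control. Of the 13, 0 passed the test, and whether they differ from the adult genes in their order over the arrays was not tested.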

How the data were processed

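Gene expression was measured on 4 arrays, 2 of cKO and 2 of control satellite cells. The deposited values are linear signal intensities, 1 per probe set, made by the authors with MAS5, per the submitters' processing notes; the sources used here do not state the scaling target, and MAS5 scaling of a whole array does not remove differences in the mix of cells. Probe sets were named from the platform annotation, and probe sets with several symbols were not used for a gene. AFFX probe sets (64) were left out.

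Values were analysed as log2(signal + 1), where the added 1 shrinks differences of dim genes only slightly. Dim genes can still show large differences, as Myot did at 3.24 in number 2, with a signal of 2.78 on control 2. A probe set was kept, 22519 in all, where its average log2 signal was at least the median one (a signal of 63.9). The groups were compared with limma 3.58.1 in R 4.3.3 (lmFit, eBayes with an intensity trend, no block, 2-sided, Benjamini-Hochberg adjustment over all kept probe sets at 0.05). The procedure was also run on simulated independent arrays with less noise than these arrays have. That run does not show how many real changes would be found here. A gene is given by its brightest probe set, whether kept or not. Named were all members, Calcr, and of other lists defining markers or examples. The rule fixed for other lists was up to 4 genes of smallest p. Klhl41, Fabp3, Casq2, Jsrp1, Actc1, Myog, Ptprc, Sox10, Hba-a1, Alas2, Slc4a1 and Pmp22 were named as examples after their values were seen where they fall outside that rule. The members, lists and tests were chosen with earlier results of these data known. Alternatives were other scalings, filters, a pseudocount of 32, eBayes without a trend, a block, unsuffixed probe sets and leaving out each array. Suffixed probe sets can match several transcripts.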

Additional observations from a re-analysis of the deposited data

How the results depend on the processing

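No member probe set passed an adjusted limma p of 0.05 in any of the 8 alternatives to the fit or with any array left out (0 in each). Over all probe sets, where 0 passed, 5 passed with a replicate block, none of them a member, and 0 to 5 with an array left out (5 without cKO 1 and 1 without control 1). At an unadjusted limma p under 0.05, 163 of 22519 passed. The 8 alternatives on all arrays ran from 88 of 11260 with the filter at the 75th percentile to 878 of 45037 without a filter. Of the 25 to 65 member probe sets tested in these, 0 or 1 passed. The numbers in the titles are not stated to mark a shared animal or batch. Across kept probe sets, deviations from the group means of same-numbered arrays correlated at 0.434. Swapping the numbers within 1 group would only turn the sign, so this value cannot show what the numbers mark. The fast members went the other way, with a median log2 difference, number 1 minus number 2, of -0.54 in cKO and 1.01 in control. A group reduced to 1 array is taken to vary like the other group. The median difference with an array left out ran from -0.58 to 0.49 for fast, -0.25 to 0.28 for slow and -0.32 to 0.34 for shared genes, so its sign rested on single arrays in every class. Under the other 6 alternatives it ran from -0.14 to 0.18 for fast, -0.09 to -0.01 for slow and -0.02 to 0.16 for shared genes. Actn3, Casq1, Ldb3, Myh7 and Tnnt1 were followed because their groups did not overlap and they passed the filter. Their sign could therefore not reverse when an array was left out. Changing the filter, the trend or the block left their differences as they were. Under other scalings and a pseudocount of 32 the signs also stayed. With an array left out the size ran from -0.84 to -0.51 for Actn3, 0.08 to 0.91 for Casq1 and -1.23 to -0.28 for Ldb3. For Myh7 it ran from -1.09 to -0.25 and for Tnnt1 from 0.22 to 0.35. Members below the filter (7 by their brightest probe set) lie where signal over background limits any reading.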

Other observations

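A pair of probe sets carried the symbols of both Myh7 and Myh6, the slow and the cardiac heavy chain genes, and were kept out of the counts above. They read 13.3 and 14.9 in cKO and 6.55 and 24.0 in control, and 4.38 and 4.53 in cKO and 1.79 and 9.30 in control, all far below the filter signal of 63.9. The calsequestrin gene of slow and cardiac muscle, Casq2, read 437 and 71.4 in cKO and 310.2 and 60.3 in control, high on the arrays numbered 1 in both groups, unlike Casq1. Slc2a4, the insulin-responsive glucose transporter gene, read 154 and 77.0 in cKO and 77.2 and 57.9 in control.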
